A study of Homo sapiens with 12 samples.

Results

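The MAP kinase phosphatases described here are 6 genes of the dual-specificity phosphatase (DUSP) family, DUSP1, DUSP2, DUSP4, DUSP5, DUSP6 and DUSP7. They were chosen by gene name from 58575 genes with read counts and 60617 genes with TPM values, which are scaled for gene length and library total, and all 6 passed the filter on low counts. The family was put forward with earlier results of these libraries known, chiefly the fold change of DUSP6 in serum medium. The values of the 6 genes are therefore a description, and no p-value is given for them. Calls by an adjusted p are used only to place each gene among all genes tested. They come from the same libraries and are no independent support.

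RNA-Seq was performed on 12 libraries of 201B7, an established human induced pluripotent stem cell (iPSC) line, with 3 libraries for each of 4 culture conditions harvested on Day 5. Cond 1 was the control, kept in StemFit pluripotency medium. Cond 2, labelled low nutrient, was given StemFit that had been heated at 56 °C for 30 min. Cond 3, labelled differentiation, was given DMEM with 10% fetal bovine serum (FBS), nonessential amino acids and GlutaMax. Cond 4, labelled physical stimulus, was passaged with 20 strokes of the pipette and otherwise kept like the control. All libraries came from this 1 line, and every well was started in StemFit before the medium of its condition. Cond 2 and Cond 3 also differed in the day of the medium change. The study calls its replicates technical in one place and describes the whole arrangement as run in triplicate in another. Whether the libraries came from independent cultures is therefore unclear, and the errors measure only the spread between these samples of 1 line. In bulk RNA, fewer cells expressing a gene and less RNA per cell cannot be told apart.

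MAP kinase phosphatases remove phosphate from both the threonine and the tyrosine of an activated MAP kinase and so switch it off. DUSP1, DUSP2, DUSP4 and DUSP5 act in the nucleus and are typically induced by growth factors or stress, and DUSP5 is directed at ERK. DUSP6 and DUSP7 act in the cytoplasm and prefer ERK. Several are themselves transcribed in response to ERK signalling, which makes them negative feedback regulators, and DUSP6 is widely used as a readout of FGF and ERK activity. Primed human pluripotent cells depend on FGF signalling through ERK, and their media usually supply FGF.

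The genes lie on 6 chromosomes of GRCh38. By the GENCODE annotation, DUSP1 spans chr5:172768096-172771195, DUSP2 chr2:96143169-96145440, DUSP6 chr12:89347235-89352501 and DUSP7 chr3:52048919-52056571, all on the minus strand. DUSP5 spans chr10:110497907-110511533 on the plus strand, and the position of DUSP4 is given with its values. The canonical transcript has 4 exons in DUSP1, DUSP2, DUSP4 and DUSP5 and 3 exons in DUSP6 and DUSP7. DUSP1 and DUSP6 each overlap a long noncoding gene on the opposite strand, ENSG00000253736 over 3100 bases and ENSG00000274021 over 1487 bases. The mean level was 0.141 TPM for ENSG00000253736 and 0.848 TPM for ENSG00000274021. The strand setting of the counting was not given in the sources used here, so reads of these pairs may not be fully separated.

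Promoter sequences were available in the RefSeq table (GRCh38.p14) for 4 of the 6 genes, DUSP1, DUSP2, DUSP6 and DUSP7, as 250 bases before and 50 bases after the start of transcription. Those of DUSP6 and DUSP1 are shown because, of the 6 genes, they had the largest decrease and the largest increase in Cond 3. The place of DUSP1 rests on replicate 1 of Cond 3, without which its log2 fold change was 0.33 and no longer the highest of the 6. Capitals mark matches, on either strand, to CGGAAG, a form of the sites that ERK-regulated ETS factors bind. They also mark the cyclic AMP response element (TGACGTCA) and its TGACG core, which CREB and ATF factors bind.
DUSP6 promoter, chr12:89352452-89352751, minus strand: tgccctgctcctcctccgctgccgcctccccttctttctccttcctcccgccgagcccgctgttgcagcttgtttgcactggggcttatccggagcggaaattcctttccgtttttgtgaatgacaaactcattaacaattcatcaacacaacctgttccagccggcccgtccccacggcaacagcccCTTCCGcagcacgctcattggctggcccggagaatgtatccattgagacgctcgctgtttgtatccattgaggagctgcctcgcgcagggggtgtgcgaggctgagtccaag
DUSP1 promoter, chr5:172771146-172771445, minus strand: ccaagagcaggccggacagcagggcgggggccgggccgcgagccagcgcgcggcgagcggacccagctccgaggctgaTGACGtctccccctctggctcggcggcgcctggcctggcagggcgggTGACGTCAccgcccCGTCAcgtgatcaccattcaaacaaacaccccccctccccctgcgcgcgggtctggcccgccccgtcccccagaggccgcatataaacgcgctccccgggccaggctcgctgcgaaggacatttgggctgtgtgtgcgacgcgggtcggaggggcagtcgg

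The DUSP6 window held 1 match to CGGAAG, starting 62 bases before the start of transcription. Of 35116 RefSeq promoters of the same length, 19.5% held at least 1. Shorter or other forms of ETS sites were not searched. The DUSP1 window held 1 cyclic AMP response element, starting 125 bases before the start, which 1.85% of promoters held. It also held 4 matches to TGACG, of which 2 lie within that element, and 24.6% of promoters held this core. None of the 4 windows held an AP-1 site (TGANTCA, in 7.71% of promoters) or a CArG box (in 1.29%), and those of DUSP2 and DUSP7 held none of the 5 motifs searched. GC content was 58.3% in the DUSP6 window, against a median of 58.7% over all promoters, and 73.3%, 75.0% and 78.0% in those of DUSP1, DUSP2 and DUSP7. A match describes the letters of the window and does not show that a factor binds there.

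Totals were between 16441148 and 21871503 counts per library. Of 9 pluripotency markers, none had a mean under 0.5 TPM in any condition, and their summed level was 6722 to 7123 TPM in Cond 1, 6046 to 6831 in Cond 2, 6899 to 7379 in Cond 3 and 6833 to 7147 in Cond 4. This sum hides opposite changes, since by the adjusted p alone 4 of the 9 rose and 4 fell in both Cond 2 and Cond 3. Of all genes, 21.1% passed in Cond 2 and 38.5% in Cond 3, in either direction. NANOG had means of 45.9 TPM in Cond 1, 22.9 in Cond 2 and 10.5 in Cond 3 and was called lower in both. TDGF1 had means of 1299, 490 and 689 TPM. POU5F1, a defining marker outside that list, was listed at only 0.412 to 1.57 TPM in the 12 libraries. It was lowest in Cond 2, at 0.412, 0.789 and 0.576 TPM. By immunostaining, the paper scored most control cells as positive for its protein, OCT4, which these RNA values do not measure. Of 7 mesenchymal markers, 3 had a mean under 0.5 TPM in each condition, and DCN was listed at 0 in every library of Cond 1, Cond 2 and Cond 3. The mesenchymal sum was 293 to 316 TPM in Cond 1, 204 to 254 in Cond 2, 539 to 576 in Cond 3 and 241 to 281 in Cond 4, nearly all of it from COL1A1 and COL1A2. The sum of 4 neuroectoderm markers was 1.32 to 5.42 TPM in Cond 1, 114 to 210 in Cond 2, 3.93 to 4.61 in Cond 3 and 1.26 to 6.48 in Cond 4, and SIX3 supplied most of it in Cond 2. The sum of 4 surface ectoderm or amnion markers was 21.0 to 24.4 TPM in Cond 1, 33.9 to 47.2 in Cond 2, 29.4 to 33.9 in Cond 3 and 20.2 to 23.9 in Cond 4. KRT7 supplied most of it in each condition. TFAP2A and GATA3 had means of 0.142 and 0.268 TPM in Cond 1 and 4.25 and 7.46 TPM in Cond 2, where both were called higher. In Cond 3 their means were 0.692 and 0.179 TPM, and only TFAP2A was called. Sums of 4 mesendoderm and 3 definitive endoderm markers were at most 4.96 TPM in any library. At these low levels, TBXT was called higher in Cond 3, with means of 0.0806 TPM in Cond 1 and 1.12 in Cond 3. CXCR4 was called higher in Cond 2 and Cond 3, with means of 0.963 TPM in Cond 1, 3.97 in Cond 2 and 2.32 in Cond 3. Its call in Cond 3 held in 9 of 14 alternative analyses. None of these markers was called lower against Cond 1. The part of these shifts in the results on the phosphatases was not tested.

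In control cells the phosphatase pool was led by DUSP6 and DUSP5, while DUSP7, which also prefers ERK, was among the lower members. DUSP6 was the most abundant at 71.3 ± 13.8 TPM (SD, n = 3), followed by DUSP5 at 43.0 ± 6.21 TPM, and the libraries of these genes did not overlap. DUSP1 (17.2 ± 1.51 TPM), DUSP2 (15.8 ± 1.70 TPM) and DUSP7 (12.6 ± 2.75 TPM) followed, with libraries that overlapped between neighbours in this order. DUSP4 was lowest at 8.02 ± 0.325 TPM, with every library below those of DUSP7. TPM values are per gene length, so that levels can be compared between genes.

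**Figure D1:**
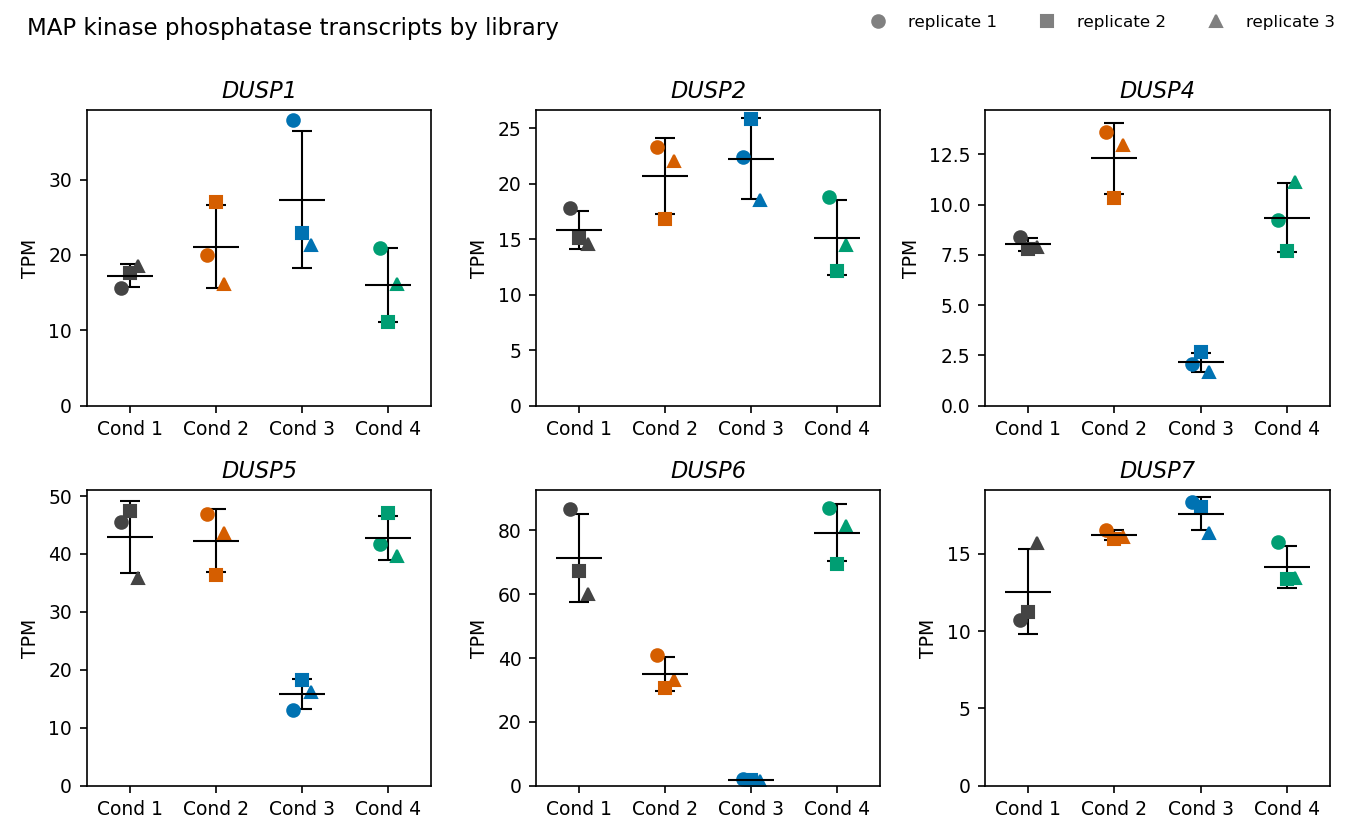
TPM of each phosphatase gene in each of the 12 libraries, by culture condition, with 1 panel per gene and its own vertical axis from 0. Symbols are replicates, horizontal bars are means and error bars are SD (n = 3). DUSP6 in Cond 3 sits between 1.61 and 2.20 TPM, below every library of the other conditions, and DUSP4 and DUSP5 are also lowest there.

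Serum medium separated the family into members that were lower and members that were higher. Against Cond 1, DUSP6, DUSP5 and DUSP4 were called lower and no member was called higher, where a call needed an adjusted p under 0.05 and a fold change above 2 in edgeR. DUSP1, DUSP2 and DUSP7 were 1.40 to 1.59 times as high in mean TPM. Over all 17747 genes tested, 3.28% were called lower and 4.85% were called higher, and 38.5% had an adjusted p under 0.05 in either direction, as all 6 members did.

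DUSP6, the cytoplasmic ERK phosphatase, was at 86.7, 67.1 and 60.1 TPM in the 3 libraries of Cond 1 and at 2.20, 1.70 and 1.61 TPM in those of Cond 3. The level in Cond 3 was 2.58% of that in Cond 1, and the ranges were far apart. The log2 fold change was −5.29 ± 0.198 (standard error), the third lowest of all genes tested. Between 1223 and 1844 reads per library lay behind the control level, and 33 to 52 behind that of Cond 3. The opposite-strand gene ENSG00000274021 was at 2.90, 0.469 and 1.51 TPM in Cond 1 and at 0.0723, 0.566 and 0.250 TPM in Cond 3. Its level was thus small beside that of DUSP6 in Cond 1, while in Cond 3 both were low.

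DUSP5, the nuclear ERK phosphatase, was at 45.5, 47.5 and 35.9 TPM in Cond 1 and at 13.0, 18.2 and 16.1 TPM in Cond 3. All 3 libraries in serum medium were below all control libraries, with a log2 fold change of −1.47 ± 0.135. DUSP4 (chr8:29333064-29350684, minus strand) is a nuclear phosphatase that acts on ERK and also on JNK and p38. It was at 8.39, 7.78 and 7.88 TPM in Cond 1 and at 2.09, 2.66 and 1.68 TPM in Cond 3. Its ranges were also separate, with a log2 fold change of −1.93 ± 0.167. DUSP4 and DUSP5 were at 26.8% and 36.7% of their control means, well above the share that was left of DUSP6.

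DUSP7, the closest relative of DUSP6 in this set by location and substrate, went the other way. It was at 10.7, 11.2 and 15.7 TPM in Cond 1 and at 18.3, 18.0 and 16.4 TPM in Cond 3, without overlap, and its log2 fold change was 0.45 ± 0.122. DUSP2, a nuclear phosphatase known from activated immune cells, was at 17.8, 15.2 and 14.6 TPM in Cond 1 and at 22.4, 25.8 and 18.6 TPM in Cond 3, with a log2 fold change of 0.46 ± 0.175. Its lowest library in serum medium was above the highest control library by less than 1 TPM.

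DUSP1, an immediate early gene that acts mainly on p38 and JNK, was at 15.6, 17.6 and 18.6 TPM in Cond 1 and at 37.9, 22.9 and 21.3 TPM in Cond 3. The ranges did not overlap, but replicate 1 of Cond 3 stood well above the others, and the log2 fold change was 0.64 ± 0.241. Without that library it was 0.33, and DUSP1 no longer passed an adjusted p of 0.05. Both DUSP1 and DUSP2 lost this threshold in 6 of 14 alternative analyses each, among them those without 1 of several single libraries of Cond 1 or Cond 3. All 6 genes thus separated Cond 3 from Cond 1 without overlap, 3 above and 3 below, while 47.6% of 17623 genes with a mean of at least 1 TPM did so in either direction.

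**Figure D2:**
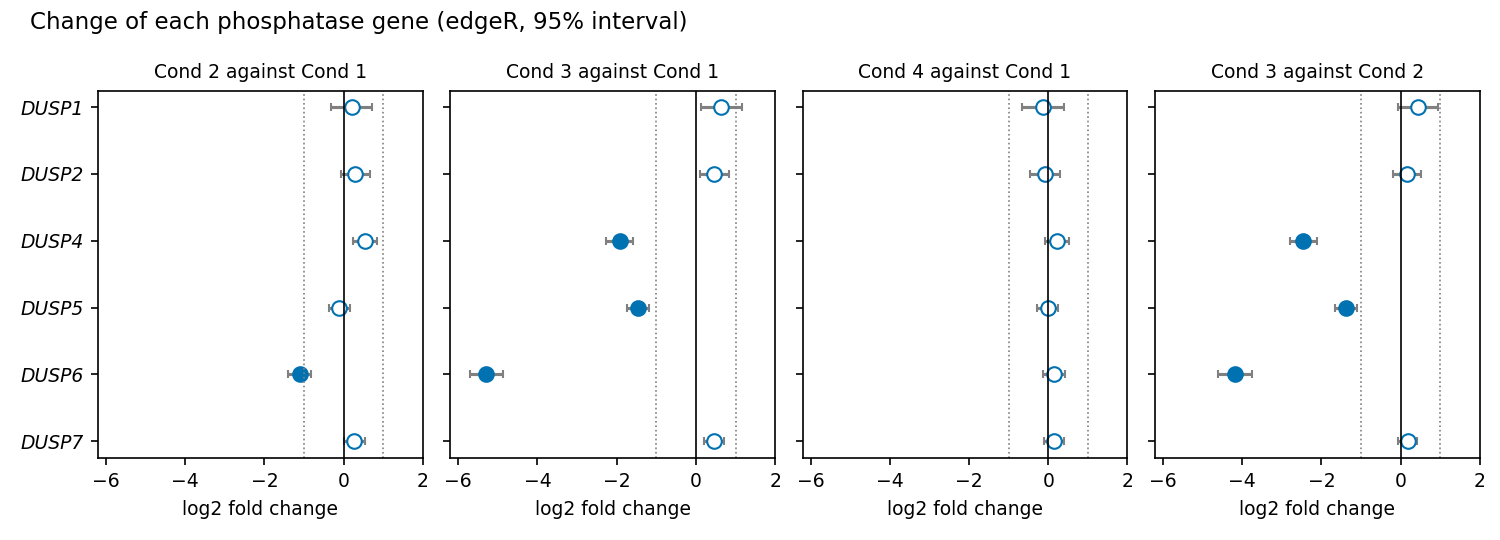
Log2 fold change of each phosphatase gene in the 4 comparisons, from edgeR, with 95% intervals. Filled points have an adjusted p under 0.05 and a fold change above 2, and dotted lines mark a log2 fold change of 1 and −1. DUSP6 is filled in 3 of the 4 comparisons and lowest at −5.29 in Cond 3 against Cond 1, and no point is filled for Cond 4.

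In serum medium, the library with the highest DUSP1 level was also the highest for some other immediate early genes, but not for all. In Cond 3, FOS, which encodes a subunit of AP-1, was at 106, 39.2 and 9.76 TPM, FOSB at 7.79, 1.74 and 1.70 TPM and JUNB at 39.5, 24.7 and 13.8 TPM. Replicate 1 was the highest for these 3 genes, as for DUSP1. ATF3, at 17.7, 17.5 and 19.9 TPM, and EGR3, at 0.746, 1.05 and 1.16 TPM, were highest in replicate 3, and EGR3 was lowest in replicate 1. In Cond 4, where DUSP1 was at 20.9, 11.1 and 16.1 TPM, FOS was at 66.9, 13.3 and 17.1 TPM and again highest in replicate 1. In Cond 2, the library with the highest DUSP1 level, replicate 2, had the lowest FOS level. These genes were chosen after their values were seen, and the part of this spread in the DUSP1 result was not tested. Between replicates, DUSP1 had the widest biological coefficient of variation of the family in edgeR, 19.9%, against 11.7% for the trend over genes at its level. For DUSP6 it was 11.9% against 7.06%, and for the other 4 genes it was 9.74% to 13.7% against 8.65% to 12.6%.

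Heated medium changed fewer members than serum medium. Against Cond 1, DUSP6 was called lower and no member was called higher, and over all genes 2.51% were called lower and 1.83% higher. DUSP6 was at 41.0, 30.7 and 33.1 TPM in Cond 2, all below the control libraries, and the log2 fold change was −1.11 ± 0.139. The mean was 49.0% of the control mean, just past the 2-fold limit. Without replicate 1 of Cond 1, the log2 fold change was −0.95 and DUSP6 was not called.

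DUSP4 was at 13.6, 10.3 and 13.0 TPM in Cond 2, above every control library, with a log2 fold change of 0.53 ± 0.146. It passed an adjusted p of 0.05, as 21.1% of all genes did in either direction, but not the 2-fold limit. Without replicate 1 of Cond 2 the log2 fold change was 0.43 and the adjusted p threshold was missed. DUSP4 was thus higher than the control in heated medium and lower in serum medium. DUSP7 was at 16.5, 16.0 and 16.1 TPM, above every control library only narrowly, since the highest of these was at 15.7 TPM. Its log2 fold change of 0.28 ± 0.123 missed the adjusted p threshold. DUSP5 (47.0, 36.3 and 43.6 TPM), DUSP1 (20.0, 27.1 and 16.2 TPM) and DUSP2 (23.3, 16.8 and 22.1 TPM) overlapped with the control. Their log2 fold changes were −0.10 ± 0.126, 0.20 ± 0.245 and 0.30 ± 0.177. No overlap between Cond 2 and Cond 1 was seen for 3 of the 6 genes and for 35.3% of genes with a mean of at least 1 TPM.

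Repeated pipetting gave no call in the family. In Cond 4, DUSP6 was at 87.0, 69.6 and 81.4 TPM, DUSP5 at 41.8, 47.0 and 39.6 TPM and DUSP4 at 9.21, 7.71 and 11.1 TPM. DUSP2 was at 18.8, 12.1 and 14.5 TPM and DUSP7 at 15.7, 13.3 and 13.4 TPM. All 6 genes overlapped with the control, and 11.9% of genes with a mean of at least 1 TPM did not. The log2 fold changes lay between −0.12 for DUSP1 and 0.21 for DUSP4. Their 95% intervals reached from −0.66 to 0.41 for DUSP1, from −0.45 to 0.29 for DUSP2 and from −0.09 to 0.51 for DUSP4. They reached from −0.27 to 0.24 for DUSP5, from −0.14 to 0.43 for DUSP6 and from −0.10 to 0.41 for DUSP7, so that a change beyond 2-fold lay outside all 6 intervals. Over all genes, 1 of 17747 was called higher (0.00563%) and 0 lower (0%), and 0.0169% had an adjusted p under 0.05. In edgeR, 1096 genes had an unadjusted p under 0.05, and DESeq2 called 3 genes.

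Between the altered media, the members that differed were those called lower in serum medium. In Cond 3 against Cond 2, the log2 fold change was −4.18 ± 0.204 for DUSP6, −2.46 ± 0.165 for DUSP4 and −1.37 ± 0.135 for DUSP5, all called lower and without overlap. DUSP4 showed a larger difference here than against the control, since its level was highest in Cond 2. DUSP1, DUSP2 and DUSP7 overlapped, with log2 fold changes of 0.43 ± 0.238, 0.16 ± 0.173 and 0.18 ± 0.121. Of all genes, 3.00% were called lower, 5.75% higher and 38.2% had an adjusted p under 0.05, and 46.7% of those with a mean of at least 1 TPM did not overlap. This comparison shares its libraries with the previous ones and is not independent of them.

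The make-up of the phosphatase pool followed from these levels. The 6 genes summed to 168 ± 16.1 TPM in Cond 1, 148 ± 12.5 in Cond 2, 87.0 ± 10.3 in Cond 3 and 177 ± 16.3 in Cond 4. DUSP6 held 42.2 ± 4.14% of this sum in Cond 1, 23.6 ± 1.59% in Cond 2, 2.11 ± 0.194% in Cond 3 and 44.8 ± 1.49% in Cond 4. DUSP1 held 10.4 ± 1.86% in Cond 1 and 31.1 ± 7.38% in Cond 3, and DUSP7 held 7.61 ± 2.37% and 20.3 ± 1.25%. In Cond 2, DUSP5 had the highest mean, but its libraries overlapped with those of DUSP6. In Cond 3, DUSP1 and DUSP2 overlapped at the top, DUSP7 and DUSP5 overlapped in the middle, and DUSP4 and DUSP6 overlapped at the bottom. In Cond 4 the order was that of Cond 1.

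**Figure D3:**
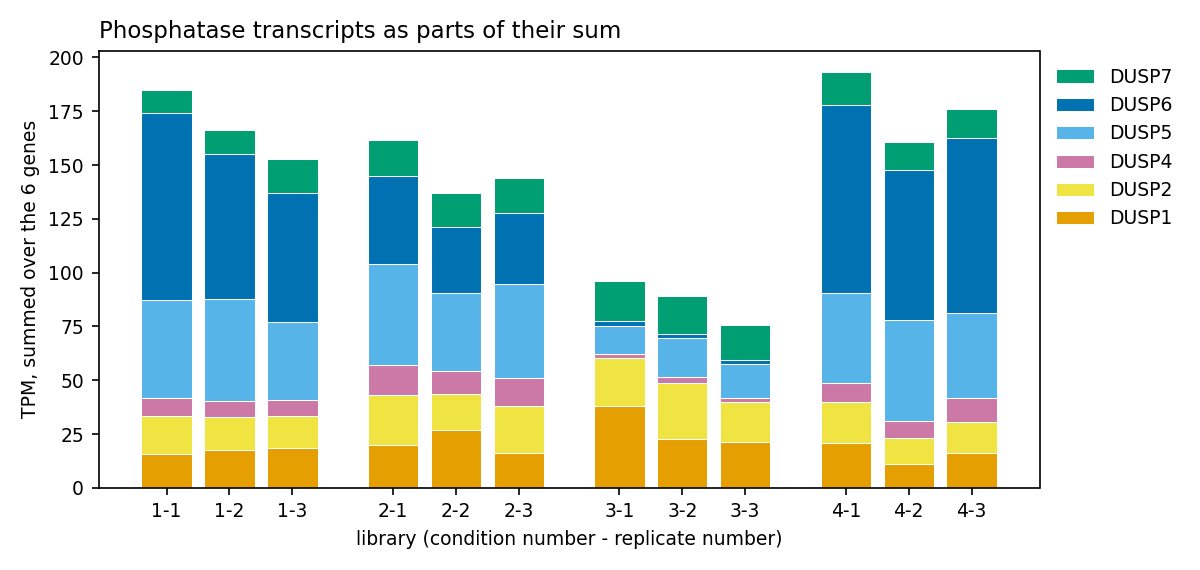
TPM of the 6 phosphatase genes stacked to their sum in each of the 12 libraries, labelled by condition and replicate number. The sum is 75.7 to 95.9 TPM in the libraries of Cond 3 and at least 137 TPM in all others, and the dark blue part, DUSP6, is at most 2.29% of the sum in Cond 3.

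Other genes of the pathway were described by lists chosen with earlier results of these data known. The first list held 16 other feedback inhibitors and targets of ERK, such as Sprouty and SPRED proteins and ETS factors of the PEA3 group. In Cond 3 against Cond 1, 6 of the 16 were called lower and 0 higher. Over all genes, 3.28% were called lower and 4.85% higher. By the adjusted p alone, 13 fell and 1 rose, where 38.5% of all genes passed in either direction. The median log2 fold change of the list was −0.81, and that of all genes was close to 0. ETV5, an ETS factor downstream of FGF, was at 38.6, 27.9 and 31.7 TPM in Cond 1 and at 1.61, 3.10 and 2.02 TPM in Cond 3. Its log2 fold change was −3.90 ± 0.204 (edgeR, adjusted p = 9.45e-10). SPRY4, a Sprouty inhibitor of receptor signalling to ERK, had a log2 fold change of −2.37 ± 0.0991, ETV4 of −1.92 ± 0.0985 and MYC, a growth regulator, of −1.65 ± 0.118. In Cond 2, 1 of the 16 was called lower, ETV5 by −1.34 ± 0.166 (edgeR, adjusted p = 2.55e-05). Over all genes, 2.51% were called lower and 1.83% higher there. By the adjusted p alone, 8 of the list fell and 2 rose, where 21.1% of all genes passed in either direction. The ephrin receptor gene EPHA4 was called higher at 3.04 ± 0.144.

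Immediate early genes moved differently in the altered media. In Cond 3, 6 of 10 tested were called lower and 0 higher, with a median log2 fold change of −1.12. Over all genes, 3.28% were called lower and 4.85% higher. EGR3, a zinc finger factor, fell by 2.40 on the log2 scale, ATF3, a stress-induced factor, by 1.85, EGR2 by 1.39 and the nuclear receptor NR4A1 by 1.27. EGR1, another of the 6, kept its call in 8 of 14 alternatives. FOS, FOSB and JUNB did not pass the test, with log2 fold changes of 0.02 ± 0.810, 1.18 ± 0.648 and 0.52 ± 0.401. In Cond 2 none of the 10 was called, where 2.51% of all genes were called lower and 1.83% higher. By the adjusted p alone, 21.1% of all genes passed in either direction and 2 of the 10 rose. Those were EGR3 at 0.81 ± 0.198 (edgeR, adjusted p = 0.00333) and ATF3 at 0.26 ± 0.0749 (edgeR, adjusted p = 0.0114). Both thus had opposite signs in Cond 2 and Cond 3, as for DUSP4. JUN, EGR1, EGR2 and NR4A1 had the same signs but did not pass the adjusted p in Cond 2. FOS, FOSB, JUNB and IER2 had negative log2 fold changes in Cond 2 that did not pass either.

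**Figure D4:**
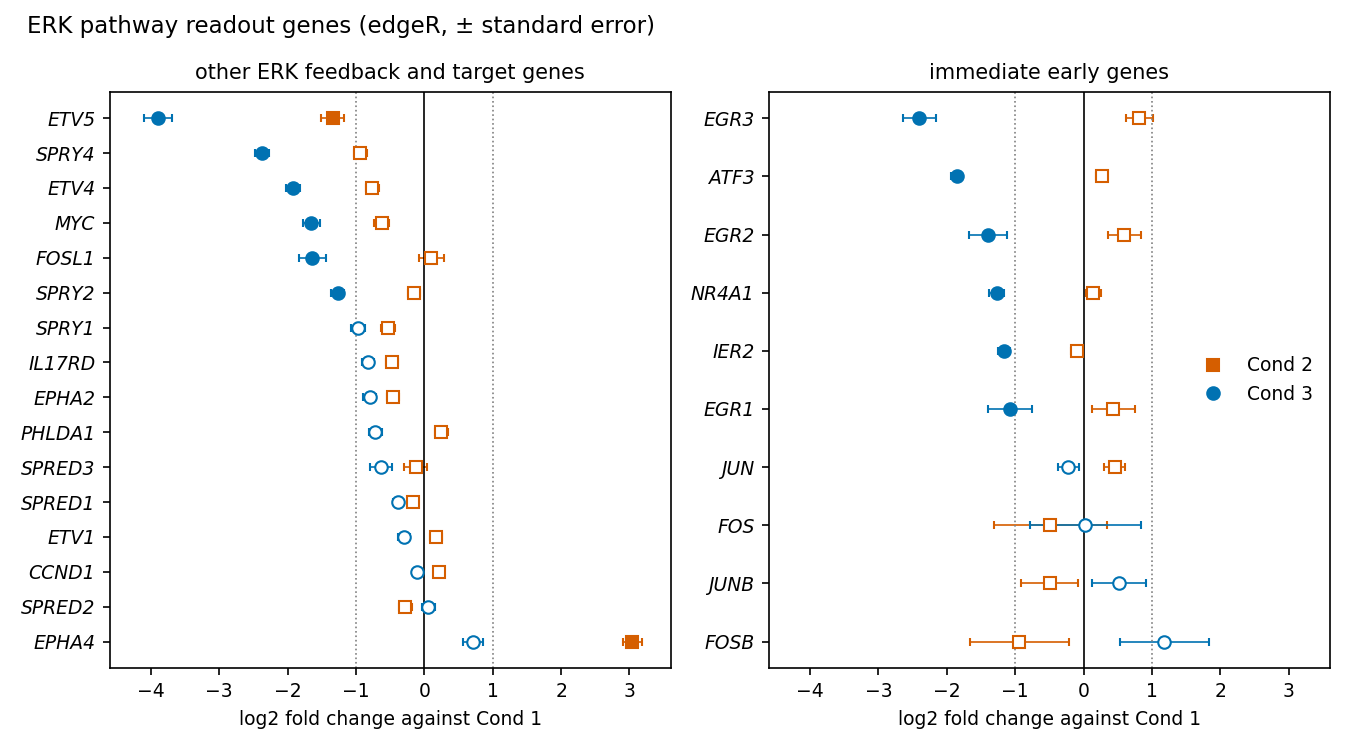
Log2 fold change against Cond 1 of other ERK feedback and target genes (left) and immediate early genes (right), in Cond 2 (squares) and Cond 3 (circles), with standard errors from edgeR. Filled symbols have an adjusted p under 0.05 and a fold change above 2, and dotted lines mark a log2 fold change of 1 and −1. ETV5 lies at −3.90 in Cond 3 and −1.34 in Cond 2, and EGR3 at −2.40 and 0.81.

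Of the kinase and cascade genes tested, only MAPK10 was called against Cond 1, in Cond 2. In Cond 3, none of 18 tested genes from the RAS to ERK cascade was called, where 3.28% of all genes were called lower and 4.85% higher. By the adjusted p alone, 3 rose and 6 fell, where 38.5% of all genes passed in either direction. The largest change was that of SHC1, at −0.72 ± 0.0572. In Cond 2 none of the 18 was called, where 2.51% of all genes were called lower and 1.83% higher. By the adjusted p alone, 5 rose and 1 fell, where 21.1% of all genes passed. FRS2 changed most there, at 0.67 ± 0.0899. MAPK3, which encodes ERK1, was at 67.5 ± 3.02 TPM in Cond 1, 78.4 ± 4.51 in Cond 2, 75.5 ± 1.99 in Cond 3 and 64.6 ± 2.07 in Cond 4. MAPK3 is named as a substrate of the phosphatases and not for its size of change. Among 11 tested genes of the JNK, p38 and ERK5 kinases, none was called in Cond 3, and MAPK10, which encodes the neural kinase JNK3, was called higher in Cond 2 at 1.56 ± 0.180 (edgeR, adjusted p = 1.79e-06).

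Of 12 tested FGF ligands and receptors, 3 were called higher and 3 lower in Cond 3. Over all genes, 4.85% were called higher and 3.28% lower there. FGF9 fell by 4.37 and FGF19 by 2.36 on the log2 scale, and FGF1 and FGF4 rose by 1.74 ± 0.357 and 1.70 ± 0.482. Most of these ligands were scarce, with control means of 0.352 TPM for FGF9, 0.637 TPM for FGF1, 0.579 TPM for FGF4 and 15.7 TPM for FGF19. By the adjusted p alone, 7 of the 12 rose and 4 fell in Cond 3, and 6 rose and 3 fell in Cond 2. Of all genes, 38.5% passed in Cond 3 and 21.1% in Cond 2, in either direction. FGF2, with a control mean of 147 TPM, was among those that fell in Cond 3, at −0.41 ± 0.0526. FGF13, with a control mean of 12.9 TPM, was called lower in Cond 3 at −1.09 ± 0.0772 and in Cond 2 at −1.03 ± 0.0771. These calls, just past the 2-fold limit, held in 13 and 11 of 14 alternatives. In Cond 2 FGF13 was not called with limma, at −0.85 on log2(TPM + 1) and −0.93 on log2(TPM + 0.1). Without replicate 1 of Cond 2 it was −0.98 and also not called. In Cond 2, 3 were called higher and 2 lower, where 1.83% of all genes were called higher and 2.51% lower. The largest of these changes were FGF4 at 1.57 ± 0.485, FGF8 at 1.53 ± 0.458 and FGF19 at −1.42 ± 0.242. The Cond 2 calls of FGF1, FGF4 and FGF8 held in 6, 9 and 9 of 14 alternatives, and 3 genes of the list were called without any 1 of replicates 1, 2 and 3 of Cond 1 or replicates 1 and 2 of Cond 2. In Cond 3, FGF9 lost its call with limma, at −0.40 on log2(TPM + 1) and −1.85 on log2(TPM + 0.1). FGF4 lost it with limma on log2(TPM + 1), at 0.87, and without replicate 3 of Cond 3, at 1.21. The Cond 3 call of FGF8, the other ligand called higher, held in 9 of 14 alternatives. In Cond 4 none of the genes in these lists was called.

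Among the other phosphatases of the family, 2 of 4 remaining MAP kinase phosphatases were tested, DUSP9 and DUSP10, and DUSP8 and DUSP16 were too low. DUSP9, an ERK phosphatase on the X chromosome, was at 2.03, 2.75 and 2.65 TPM in Cond 1 and at 6.72, 3.56 and 4.97 TPM in Cond 3. All serum libraries were above the control, with a log2 fold change of 1.01 ± 0.323 (edgeR, adjusted p = 0.0148), just past the 2-fold limit. Without replicate 1 of Cond 1 or replicate 1 of Cond 3 it was 0.88 or 0.76, and DUSP9 was not called. It was also not called with limma, at 0.78 on log2(TPM + 1) and 0.97 on log2(TPM + 0.1), or with a replicate block, at 0.98. Of 10 tested atypical dual-specificity phosphatases, DUSP28 was called higher in Cond 3, as 4.85% of all genes were, at 1.06 ± 0.328. DUSP15 was called higher in Cond 2, as 1.83% of all genes were, at 1.12 ± 0.172. These calls were lost without replicate 3 of Cond 3, where DUSP28 was at 0.89, and without replicate 2 of Cond 2, where DUSP15 was at 0.96. DUSP14 was listed at 0 in all libraries.

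Genes with the most similar profile were sought by the root mean square difference of log2(TPM + 1), centred on Cond 1, over the 12 libraries. For DUSP6 they were GDF15 (0.562), a stress-induced secreted factor, G0S2 (0.621), an inhibitor of lipolysis, and ETV5 (0.701). These distances were larger than those of the nearest genes of the other members. GDF15 had means of 125 TPM in Cond 1, 78.2 in Cond 2, 8.01 in Cond 3 and 130 in Cond 4. For DUSP5 they were the annexin gene ANXA3 (0.130), ZBBX (0.162) and the Sprouty gene SPRY2 (0.169). For DUSP4 they were TXNRD2 (0.203), the angiogenic factor VEGFA (0.210) and PSAT1 (0.211), an enzyme of serine synthesis. For DUSP7 they were ARHGAP28, SHCBP1 and NBEA (0.0918 to 0.101), for DUSP2 MED20, AL355338.1 and FBRSL1 (0.149 to 0.158), and for DUSP1 AC120114.1, CLDN3 and TMEM14A (0.221 to 0.234). With log2(TPM + 0.1), 3 of the 3 genes were the same for DUSP7, 2 for each of DUSP1, DUSP2, DUSP5 and DUSP6, and 0 for DUSP4.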

How the data were processed

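Per the labels and the methods, the authors prepared directional poly(A) libraries, trimmed reads with cutadapt 4.1 and fastp 0.20.1, aligned them to GRCh38 with HISAT2 2.1.0 and counted them with featureCounts. The authors deposited whole-number read counts per gene, without normalization, and TPM values, obtained from those counts by dividing by gene length and setting every library to 1 common total. The handling of strand and of reads with several matches was not given in the sources used here. The count table had 58580 lines and ended on chromosome 22, and 5 incomplete lines were dropped. The 2042 genes without a count row enter only as TPM. Items withheld for evaluation are not reported here.

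TMM-normalized counts entered edgeR 4.0.16 (R 4.3.3), whose quasi-likelihood test was run in 1 fit over the 12 libraries and all 17747 genes that passed filterByExpr, with Benjamini-Hochberg adjustment over these genes. A call needed an adjusted p under 0.05 and a fold change above 2. The members and gene lists were chosen with earlier results of these data known. The text names all 6 members, up to 4 called genes per list and comparison with the largest changes, the 3 genes closest to each member and annotated genes overlapping a member. Other names were chosen after their values were seen. Alternatives were DESeq2 1.42.0, limma 3.58.1 on log2(TPM + 1) and log2(TPM + 0.1), upper-quartile normalization, no filter, only the 6 libraries compared, a replicate block and leaving out each library. edgeR without robust estimation was added after seeing the data. The scripts were tested on simulated data. Libraries of 1 condition differed by 4.19 to 10.2 in chi-square per gene, above sampling noise. In the comparisons checked, deviations of samples with the same replicate number were hardly correlated (−0.0114 to 0.036). In Cond 4 against Cond 1, each replicate still correlated best with that of its own number (0.0159 to 0.0276). Cond 4 was not checked against Cond 2 or Cond 3. Members had 33 to 1844 reads per library, which limits DUSP6 in Cond 3 most.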

Additional observations from a re-analysis of the deposited data

How the results depend on the processing

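Of 396 values of member changes and of counts of called members under the alternatives, 365 kept their direction and side of the adjusted p threshold (or, for counts, stayed within 1.5 times). The limit on the fold change was not part of that criterion for single genes, and DUSP6 in Cond 2 fell short of it at −0.95 without replicate 1 of Cond 1. The lower DUSP6, DUSP5 and DUSP4 of Cond 3 against Cond 1 and against Cond 2 were called in all alternatives. The other values follow, and the cause was not tested. In Cond 3 against Cond 1, DUSP1 lost the adjusted p threshold with limma on log2(TPM + 1) at 0.59 and on log2(TPM + 0.1) at 0.62, and DUSP2 at 0.46 and 0.48. With 1 library left out, the log2 fold change was 0.33 to 0.79 for DUSP1 and 0.34 to 0.57 for DUSP2. In Cond 2 against Cond 1, DUSP4 lost the threshold with limma at 0.55 and 0.60, and with 1 library left out it was 0.43 to 0.65. DUSP7 was 0.16 to 0.49 with 1 library left out and passed at 0.49 without replicate 3 of Cond 1. DUSP1 was −0.0082 to 0.37 and DUSP5 −0.21 to 0.0029, each changing sign without replicate 2 of Cond 2. The number of members called in Cond 2 was 0 to 1 with 1 library left out (0 without replicate 1 of Cond 1). With no limit on the fold change it was 2 in Cond 2 and 6 in Cond 3. In Cond 4 against Cond 1, signs changed in DUSP1 (−0.35 to 0.0792 with 1 library left out), DUSP2 (−0.26 to 0.0527) and DUSP5 (−0.12 to 0.0575), and DUSP5 was 0.0012 and 0.0014 with limma. In Cond 3 against Cond 2, DUSP1 passed with no filter on low counts at 0.43. The replicate block changed no call of a member: DUSP6 was −5.30 in Cond 3 and −1.11 in Cond 2 with the block, and DUSP9 in Cond 3, at 0.98 with the block and 1.01 without it, no longer passed the 2-fold limit. Of the counts of called genes in the pathway lists and the sets of similar genes, 18 of 202 moved by more than 1.5 times. Depth limits DUSP6 in Cond 3, with 33 to 52 reads per library.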
